A study of Mus musculus with 12 samples.

Results

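RNA of sorted pachytene/diplotene spermatocytes from Baz1a-/- mice was compared with that of Baz1a+/- control mice. The comparison used 5 of the 12 arrays of the series, namely mutant replicates 2 and 3 against control replicates 1 to 3. It covered the 23393 of 45281 probes that were detected above background (detection p under 0.05) on at least 1 of these 5 arrays. Those probes carried 12825 named genes. A sixth spermatocyte array, mutant replicate 1, was censored by the submitters for inferred admixture of round spermatids, and it entered none of the tests given here except where it is said to have been added. Round spermatids of the same genotypes, on 3 arrays each, served to show where spermatocytes differed, and they shared the fit from which the variance of every probe was estimated.

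All animals were adult males of a mixed C57BL/6J and FVB/NJ background. The mutant allele came from 1 targeted embryonic stem cell line and lacked a single floxed Baz1a exon, which Stra8-Cre had removed in the male germ line of an ancestor. The control mice carried 1 copy of the same deleted allele, so the comparison was of homozygous with heterozygous animals and held no wild type. Cells were separated by flow cytometry on Hoechst fluorescence, and each array held the RNA of 1 mouse. The series text speaks of 3 littermate pairs, but the labels do not say which mice formed them.

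BAZ1A, also called ACF1, is the large accessory subunit of the chromatin remodelers ACF and CHRAC, in which the ISWI-family ATPase SMARCA5 slides and spaces nucleosomes. CHRAC also holds the small histone-fold proteins POLE3 and CHRAC1. In pachytene and diplotene spermatocytes homologous chromosomes are paired, recombination is completed, the X and Y chromosomes are kept silent in the sex body, and many genes that act after meiosis are already transcribed.

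No probe was annotated as Baz1a, so the deletion could not be checked on the arrays. None of the 10 measured genes of ISWI complexes was called, while 0.304% of all tested probes were. The probe for Smarca5 read 6.10 and 5.30 in mutants, against 5.79, 5.77 and 5.02 in controls (log2 normalized signal, the scale of every level below). The Chrac1 probe read 12.17 and 12.55 in mutants, against 12.27, 12.53 and 12.41 in controls.

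Between 36.8% and 39.2% of all probes were detected on the mutant arrays and between 37.8% and 40.4% on the control arrays. The median SD between arrays of a group was 0.26 in mutants and 0.25 in controls. The number of arrays, 2 and 3, limits the precision. Spermatocyte markers, 21 measured genes such as the heat shock gene Hspa2 and the lactate dehydrogenase gene Ldhc, averaged 9.83 and 9.96 on the mutant arrays, against 9.92, 9.76 and 9.91 on the control arrays. Round spermatid markers, 27 measured genes such as Acrv1 and Tnp1, averaged 7.83 and 10.03 on mutant replicates 2 and 3, against 8.74, 7.17 and 8.88 on the controls. They averaged 10.43 on the censored mutant array and 11.79 to 12.10 on the 6 spermatid arrays. Thus mutant replicate 3 stood above every control for spermatid markers, mutant replicate 2 lay within the control range, and the part of spermatid RNA in each result was not tested beyond the values given beside it. By the study's microscopy counts, control replicate 1 was the least pure of these sorts, followed by mutant replicate 3, and mutant replicate 2 was the purest. Control replicate 1 had the largest weight of the spermatocyte arrays in the fit (1.51). Sertoli cell markers averaged 5.04 and 6.02 in mutants, against 6.57, 5.41 and 6.20 in controls, and all 13 measured had a difference below 0. Leydig cell markers averaged 5.05 and 6.40 in mutants, against 6.21, 5.03 and 5.83 in controls. No gene of the 10 marker lists was called, while 0.304% of all tested probes were. In bulk samples such as these, fewer cells of a type and less RNA per cell cannot be told apart.

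**Figure D1:**
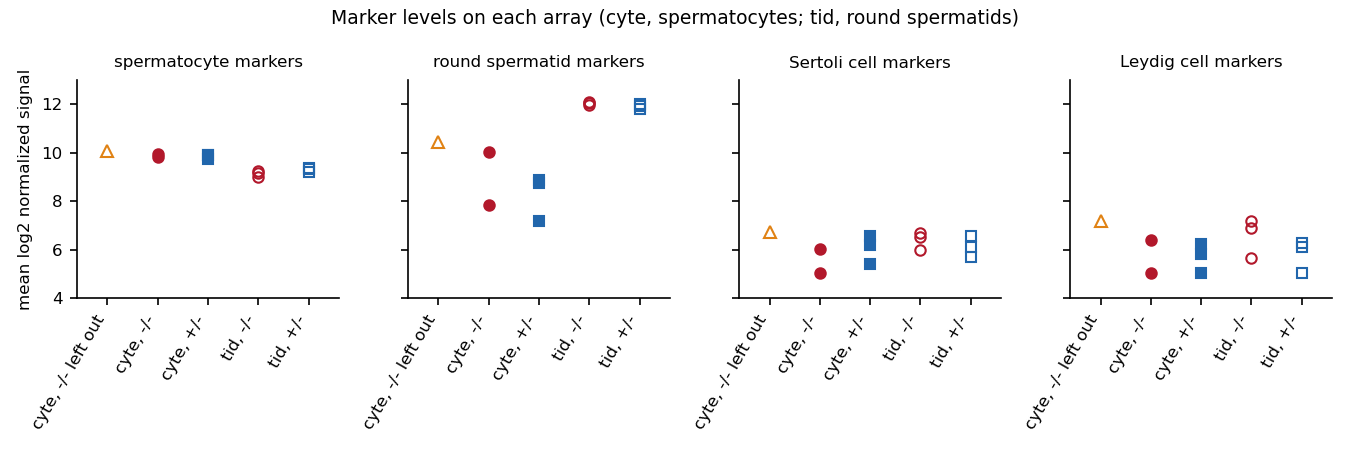
Mean log2 normalized signal (y axis) of 4 marker lists on each of the 12 arrays, with 1 point per array. Groups on the x axis are the censored Baz1a-/- spermatocyte array (triangle), Baz1a-/- (circles) and Baz1a+/- (squares) spermatocytes (filled), and Baz1a-/- and Baz1a+/- round spermatids (open). Round spermatid markers lay at 7.83 and 10.03 in mutant spermatocytes and between 7.17 and 8.88 in control spermatocytes.

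Baz1a-/- spermatocytes differed from the controls at 71 probes, of which 46 (40 named genes) were higher and 25 (22 named genes) were lower in mutants. A call needed a fold of 2 and a limma p below 0.05 after Benjamini-Hochberg adjustment over all tested probes, and 0.304% of the tested probes met it (0.197% higher and 0.107% lower). An unadjusted p below 0.05 was reached by 1115 probes. The rises ranged from 1.34 to 3.65 (log2, median 1.85) and the falls from -1.17 to -2.86 (median -1.86), beside a median of -0.02 over all tested probes. A fold of 4 or more was seen at 16 probes called higher and 10 called lower. At all 71 called probes the mutant and control arrays did not overlap, which was true of 20.4% of all tested probes. The calls were made on these same arrays, so this largely follows from how the probes were chosen. When each array was scaled on its median in place of quantile normalization, 70 probes were called and 47 of the 71 were among them, but 23 were then higher and 47 lower (32.9% higher, beside 64.8%). That scaling put the median of all tested probes at -0.26.

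The count of calls differed with the arrays in the fit. With only the 5 spermatocyte arrays, 26 of the 71 probes were called (15 higher and 11 lower), among them 2610016A17Rik, Evpl, Cldn5, Rhou, Cdkn1c, Fa2h, Plxna2 and AK019737. With 1 spermatocyte array left out, 11, 23 and 18 probes were called without control replicates 1, 2 and 3, 568 without mutant replicate 2 and 191 without mutant replicate 3. The 191 calls without mutant replicate 3, the array with the highest spermatid markers in the fit, held 64 of the 71. A fit with 1 mutant spermatocyte array assumes that it varies like the arrays of the other groups. With the censored array added 859 probes were called, 70 of the 71 among them. With the spermatid marker level as a covariate 429 were called, all 71 among them. Of the 71 probes, those of 2610016A17Rik, Evpl and Cldn5 were called under every one of 25 alternative settings.

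**Figure D2:**
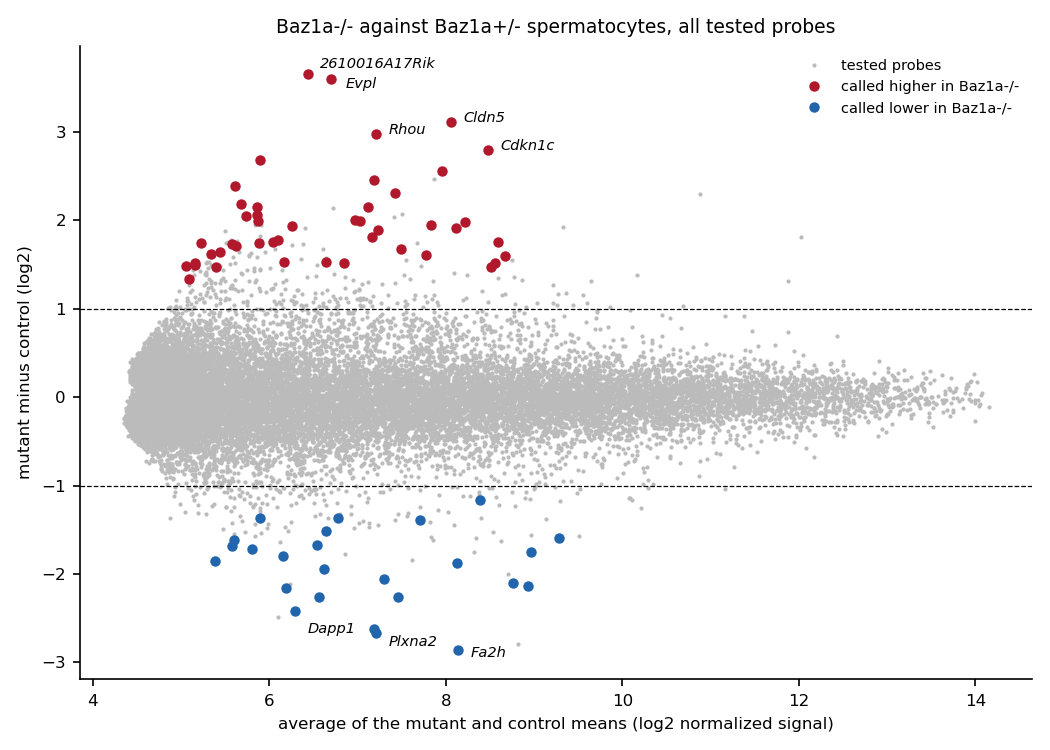
Difference between mutant and control spermatocytes (y axis, log2) of the 23393 tested probes against the average of the 2 group means (x axis, log2 normalized signal). Red points are the 46 probes called higher and blue points the 25 called lower in Baz1a-/-, with dashed lines at a fold of 2. Most probes lie near 0 at every level.

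The transcripts with the largest changes are given with the value on each array, mutant replicates 2 and 3 first and then control replicates 1 to 3. For the probes above background on no array of 1 genotype, the change is a lower bound. It compares the mean of the brighter group with the mean of the lowest signal called detected on each array of the other, or of the probe itself where that was higher.

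The largest rise was at 2610016A17Rik, a long noncoding RNA on chromosome 19. It read 7.89 and 8.62 in mutants, against 4.53, 4.72 and 4.63 in controls. No control array detected it and both mutant arrays did, so it was at least 10.8-fold higher in mutants (means 8.25 ± 0.52 and 4.62 ± 0.09, SD, n = 2 mutants and 3 controls, adjusted p = 0.000443).

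Genes of cell junctions and of the cytoskeleton stood next. Evpl encodes envoplakin, which ties desmosomes and the cornified envelope of keratinocytes to keratin filaments, and it read 8.63 and 8.40 in mutants, against 4.95, 4.99 and 4.74 in controls. It was 12.1-fold higher in mutants (log2 difference 3.59, SE 0.34, adjusted p = 0.000847). Cldn5, the main claudin of endothelial tight junctions, read 9.40 and 9.83 in mutants, against 6.47, 6.46 and 6.59 in controls, and was 8.67-fold higher (SE 0.26 on the log2 scale, adjusted p = 0.000443). The control arrays of both genes lay within a narrow band far below either mutant array. Rhou, an atypical small GTPase induced by Wnt signals, read 8.54 and 8.87 in mutants, against 5.78, 5.75 and 5.60 in controls. Its rise was 7.86-fold (2.98, SE 0.30, adjusted p = 0.00135). Pcdh17, a protocadherin of neural cell adhesion, was more uneven, at 7.77 and 9.05 in mutants, against 5.92, 6.08 and 5.89 in controls (5.50-fold, SE 0.37 on the log2 scale, adjusted p = 0.0171), and its second probe differed by 1.25 without being called. Farp1, a guanine nucleotide exchange factor, and both called probes of the muscle giant Ttn were also higher in mutants. Farp1 differed by 1.53 on the log2 scale at its called probe and by 1.38 at the other (adjusted p = 0.0614), and the Ttn probes were 4.01-fold and 3.71-fold higher, while the other 2 measured Ttn probes differed by 0.73 and 0.22 and were not called.

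Of 17 measured claudin and tight junction genes only Cldn5 was called, with a median difference of 0.10 over the list. Both mutant arrays lay above all controls at 5 of the 17 and below them at 1. Of 24 measured genes of desmosomes, plakins and adherens junctions only Evpl was called (median 0.10). There the mutant arrays lay above all controls at 4 and below them at 2. Over all tested probes these shares were 8.25% above and 12.1% below, and 0.304% were called. Ppl, periplakin, the partner of envoplakin, read 4.91 and 4.67 in mutants, against 4.56, 4.43 and 4.55 in controls.

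Regulators of the cell cycle were called at 2 genes. Cdkn1c, an imprinted gene whose product inhibits cyclin-dependent kinases, read 9.67 and 10.07 in mutants, against 6.98, 7.36 and 6.94 in controls. It was 6.94-fold higher (2.80, SE 0.42, adjusted p = 0.0171). E2f2, a transcription factor of the G1 to S transition, read 6.75 and 7.03 in mutants, against 4.81, 4.93 and 4.76 in controls at 1 probe (4.16-fold, adjusted p = 0.0171). Its second probe gave 7.07 and 6.73 in mutants, against 5.18, 5.78 and 5.34 in controls (2.88-fold, adjusted p = 0.0331). Cdkn1c was the only gene called among 7 CDK inhibitors (median -0.30) and among 21 imprinted genes (median -0.04), and none of 23 meiotic cyclins and cell-cycle kinases was called (median -0.17). Among the other CDK inhibitors, Cdkn2b read 5.35 and 5.39 in mutants, against 6.28, 5.96 and 5.86 in controls, and did not pass the test.

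Transcription factors of embryonic patterning were higher in mutants. Sp5, a Wnt-induced zinc finger factor, read 6.19 and 7.46 in mutants, against 4.54, 4.36 and 4.29 in controls, where no array detected it. It was at least 4.03-fold higher (means 6.82 ± 0.90 and 4.40 ± 0.13, SD, n = 2 and 3, adjusted p = 0.0171). Mutant replicate 3 stood higher than replicate 2. Vax1, a homeobox gene of the ventral forebrain and eye, read 6.61 and 6.89 in mutants, against 4.60, 4.93 and 4.63 in controls (4.15-fold, adjusted p = 0.00895), while its other measured probes differed by 0.65 and 0.35 and were not called. Lhx1, a LIM homeobox gene of head and kidney formation, read 5.59 and 6.23 in mutants at its called probe, which no control array detected (4.34, 4.56 and 4.30), so the probe was at least 2.14-fold higher (adjusted p = 0.0331). Its other measured probe differed by 0.87 and was not called.

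Hoxa5 was the only one called of 20 measured Hox genes (median 0.14), at 7.81 and 8.39 in mutants, against 6.40, 6.47 and 5.80 in controls (3.51-fold, adjusted p = 0.0415). Its neighbours in the cluster, Hoxa6 and Hoxa7, did not pass the test, with 5.85 and 5.54 (Hoxa6) and 6.09 and 5.76 (Hoxa7) in mutants, against 4.41 to 4.90 and 5.07 to 5.35 in controls. Sp5 was likewise the only one of 18 Wnt target and feedback genes called (median 0.12). Axin2, the standard readout of canonical Wnt signalling, read 4.79 and 4.43 in mutants, against 4.86, 4.89 and 4.56 in controls. Dach1, a cofactor of eye and limb development, and both probes of the zinc finger gene Zfp296 completed the group, with rises of 1.76 (Dach1), 1.61 and 1.52 (Zfp296) on the log2 scale. Of 4 probes for Dach1, 1 was called and the others differed by 0.35 to 1.46.

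Transporters and enzymes formed a further group. Abcb4, which exports phosphatidylcholine into bile, read 7.93 and 9.05 in mutants, against 5.68, 6.64 and 6.76 in controls. Its rise was 4.96-fold (SE 0.42, adjusted p = 0.0415), and the spread was wide in both groups. Slc1a4, a transporter of neutral amino acids, read 7.04 and 6.89 in mutants, against 4.90, 4.89 and 4.50 in controls (4.45-fold, adjusted p = 0.0109). Serpind1, the thrombin inhibitor heparin cofactor II, read 6.52 and 7.01 in mutants, against 4.48, 4.85 and 4.48 in controls (4.53-fold, adjusted p = 0.0119). Plcb2, a phospholipase C of G protein signalling, read 8.91 and 9.51 in mutants, against 6.50, 6.91 and 6.72 in controls (5.87-fold, adjusted p = 0.00159), but its other measured probe differed by 0.43 and was not called.

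Smaller rises in this group included that of Slc5a5, the sodium-iodide symporter (1.51 on the log2 scale, with 0.63 at an uncalled probe). Gad1, which makes the transmitter GABA, was 3.99-fold higher at 1 of its probes and differed by 1.95 at the other (adjusted p = 0.0838), and the fatty acid desaturase gene Fads1 rose by 1.47. The called probes of Klkb1, plasma prekallikrein, and of the cytochrome gene Cyp2a5 were above background in no control array, with lower bounds of 3.09-fold and 1.93-fold. A second Klkb1 probe, detected on 4 of the 5 arrays, differed by 1.27 and was not called. The other 3 Cyp2a5 probes differed by 0.34 to 1.13, and none of them was called.

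The other rises were of receptors, secreted proteins and genes of less known function. Tnfrsf21, a death receptor of the TNF family, read 6.14 and 6.05 in mutants at its called probe, which was not detected in controls (4.36, 4.30 and 4.39), so the probe was at least 2.43-fold higher (adjusted p = 0.0386). Its other measured probe differed by 0.28 and was not called. The ephrin receptor gene Epha5 (1.78), the endothelial phosphatase gene Ptprb (1.71), the mucin gene Muc16 (1.92) and Bpifb2 (1.75) were higher in mutants on the log2 scale, Epha5 at 1 of 3 measured probes (0.67 and 0.49 at the others). So were Ube2cbp (1.94), Vpreb3 (1.67), the plasminogen receptor gene Plgrkt (1.65) and 2 of 3 probes of the collagen gene Col24a1 (1.93 and 1.75, with 0.87 at the uncalled probe). The called probes of the ghrelin receptor gene Ghsr, of Cnih3, an auxiliary protein of AMPA-type glutamate receptors, and of the RNA A930017M01Rik were undetected in all controls, with lower bounds of 2.12-fold, 2.48-fold and 1.99-fold, while a second Ghsr probe differed by 0.65 and was not called. The probe for 1700001L19Rik read 7.52 and 8.54 in mutants, against 6.20, 5.39 and 6.51 in controls (3.97-fold, adjusted p = 0.0492). It read 9.09 on the censored array and 10.56 to 10.84 in control spermatids. An unnamed probe was also higher (log2 difference 1.62). In all, 10 of the 46 probes called higher were detected on both mutant arrays and on no control array, against 218 of all 23393 tested.

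**Figure D3:**
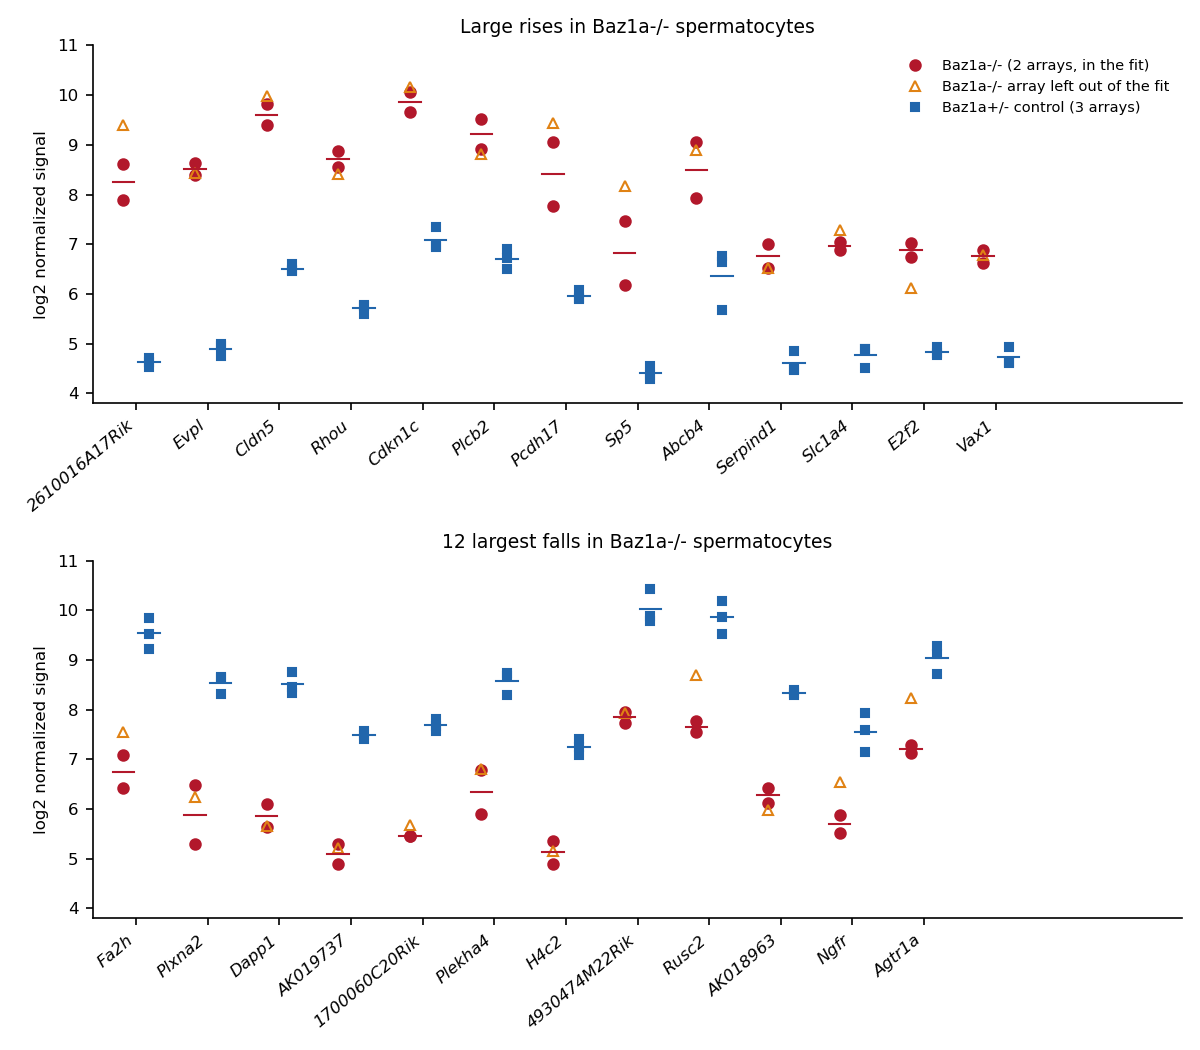
Log2 normalized signal (y axis) of genes with the largest rises (upper panel) and of the 12 genes with the largest falls (lower panel), 1 probe per gene (x axis). Circles are the 2 Baz1a-/- arrays of the fit, triangles the censored Baz1a-/- array, squares the 3 Baz1a+/- arrays, and short lines the means of the fitted arrays. In each gene both fitted mutant arrays and the censored one lie on the same side of all 3 control arrays.

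The largest fall was at Fa2h, which hydroxylates the fatty acids of sphingolipids. It read 6.41 and 7.08 in mutants, against 9.85, 9.22 and 9.53 in controls, a 7.27-fold fall (-2.86, SE 0.30, adjusted p = 0.00143). It was the only one called of 23 measured genes of seminolipid and sphingolipid synthesis (median -0.05). Aldh3a2, fatty aldehyde dehydrogenase, was also lower (-1.39, adjusted p = 0.0415), and its second probe gave -1.18 without passing the test.

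Genes of signalling at the membrane made up much of the rest. Plxna2, a receptor for class 6 and class 3 semaphorins, read 5.30 and 6.47 in mutants, against 8.66, 8.32 and 8.63 in controls (6.37-fold lower, SE 0.32 on the log2 scale, adjusted p = 0.00341). It was the only one called of 18 semaphorins, plexins and neuropilins (median -0.10). Dapp1, a phosphoinositide-binding adaptor of B cell receptor signalling, read 5.64 and 6.09 in mutants, against 8.45, 8.34 and 8.75 in controls at its brighter probe (6.14-fold lower, adjusted p = 0.0320). Its second probe was 3.06-fold lower. Plekha4, another phosphoinositide-binding protein, was called at both probes. The first read 5.90 and 6.79 in mutants, against 8.74, 8.28 and 8.68 in controls (4.77-fold lower, adjusted p = 0.0204). The second was detected on neither mutant array (4.33 and 4.62) and on all 3 control arrays (6.42, 6.18 and 6.32), so it was at least 2.76-fold lower (adjusted p = 0.0331).

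Ngfr, the low-affinity neurotrophin receptor, read 5.51 and 5.87 in mutants, against 7.93, 7.15 and 7.58 in controls (3.86-fold lower, adjusted p = 0.0415). Agtr1a, a receptor for angiotensin, read 7.14 and 7.29 in mutants, against 9.28, 8.72 and 9.13 in controls (3.67-fold lower, adjusted p = 0.0320). Mcf2l, a guanine nucleotide exchange factor, fell by 1.68 at 1 of 3 measured probes, and the others differed by -0.12 and -0.65. Rusc2, which binds a Rab GTPase, read 7.55 and 7.76 in mutants, against 9.52, 9.86 and 10.20 in controls (4.29-fold lower, adjusted p = 0.0331). Of its other measured probes 1 read 7.64 in mutants and 9.77 in controls on average (adjusted p = 0.142) and 1 differed by 0.07, neither of them called.

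The extracellular matrix genes Crtap, a subunit of the collagen prolyl hydroxylase complex, and Hspg2, perlecan, fell by 1.72 and 1.37 on the log2 scale. Crtap read 4.85 and 5.03 in mutants, against 6.65, 6.58 and 6.79 in controls, and Hspg2 5.14 and 5.33 in mutants, against 6.76, 6.48 and 6.41 in controls. The second probe of each gene was lower without passing the test (-1.29 and -1.21). Beside these falls, the 8 measured markers of myoid cells and fibroblasts averaged 5.74 and 5.98 in mutants, against 5.77, 5.58 and 5.91 in controls, with none called.

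Further falls were of H4c2, a gene for histone H4, and of a serine protease, Prss56. H4c2 read 5.36 and 4.89 in mutants, against 7.41, 7.09 and 7.24 in controls (4.46-fold lower, adjusted p = 0.0237). Near-identical histone H4 genes may share this probe. Prss56 fell by 1.75, the gamma-glutamyltransferase relative Ggt7 by 1.67, the ubiquitin peptidase relative Usp53 by 1.36, Fem1al by 1.17 and Gm3952 by 1.59 on the log2 scale. Of 3 measured probes each for Usp53 and Fem1al, 1 was called.

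Noncoding or unannotated transcripts were lower as well. AK019737 read 5.30 and 4.88 in mutants, against 7.57, 7.49 and 7.40 in controls (5.35-fold lower, SE 0.25 on the log2 scale, adjusted p = 0.00143). The noncoding RNA 4930474M22Rik read 7.73 and 7.95 in mutants, against 9.89, 9.78 and 10.43 in controls (4.39-fold lower, adjusted p = 0.00341). The noncoding RNA 1700060C20Rik read 5.45 and 5.46 in mutants, against 7.81, 7.57 and 7.67 in controls (4.79-fold lower, adjusted p = 0.00697). At each of these the mutant arrays lay below the lowest control by more than 1 on the log2 scale. AK018963 read 6.42 and 6.12 in mutants, against 8.29, 8.39 and 8.34 in controls (4.16-fold lower, adjusted p = 0.00434). AK007249 fell by 1.80 and an unnamed probe by 1.51 on the log2 scale.

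Promoter sequences of RefSeq (mouse build GRCm38.p6) are shown for the leading noncoding RNA, for 2 junction and cytoskeleton genes with large rises and for 1 of the largest falls, so that their base composition can be read beside their changes. Each is the 250 bases before the annotated start, written 5′ to 3′ on the strand of the gene, with CpG dinucleotides in capitals.
2610016A17Rik (chr19:25672240-25672489, minus strand): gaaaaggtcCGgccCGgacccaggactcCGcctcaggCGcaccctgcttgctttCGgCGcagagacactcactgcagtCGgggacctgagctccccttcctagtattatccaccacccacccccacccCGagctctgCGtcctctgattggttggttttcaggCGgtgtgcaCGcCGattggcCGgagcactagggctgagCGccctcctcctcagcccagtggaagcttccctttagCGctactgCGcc
Cldn5 (chr16:18776597-18776846, plus strand): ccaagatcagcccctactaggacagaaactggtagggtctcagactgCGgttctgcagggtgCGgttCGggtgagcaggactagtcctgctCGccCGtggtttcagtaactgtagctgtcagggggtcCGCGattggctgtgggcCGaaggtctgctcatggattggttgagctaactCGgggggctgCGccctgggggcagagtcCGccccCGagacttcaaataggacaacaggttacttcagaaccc
Rhou (chr8:123653679-123653928, plus strand): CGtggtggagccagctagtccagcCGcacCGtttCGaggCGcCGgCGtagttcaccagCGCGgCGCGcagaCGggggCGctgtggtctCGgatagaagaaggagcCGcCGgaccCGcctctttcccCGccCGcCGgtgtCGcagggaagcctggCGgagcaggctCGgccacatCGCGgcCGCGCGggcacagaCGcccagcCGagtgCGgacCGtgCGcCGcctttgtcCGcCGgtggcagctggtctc
Plxna2 (chr1:194619579-194619828, plus strand): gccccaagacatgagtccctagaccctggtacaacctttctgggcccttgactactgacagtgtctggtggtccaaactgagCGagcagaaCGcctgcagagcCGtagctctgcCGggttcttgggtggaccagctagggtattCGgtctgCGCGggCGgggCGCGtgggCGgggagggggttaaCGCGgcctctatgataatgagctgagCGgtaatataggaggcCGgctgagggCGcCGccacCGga
They held 16 (2610016A17Rik), 12 (Cldn5), 36 (Rhou) and 18 (Plxna2) CpG dinucleotides. A promoter was listed for 31 of the 40 genes called higher and for 14 of the 21 called lower that had a gene ID. Some genes had several listed windows, so there were 32 windows for genes called higher and 22 for genes called lower, with Mcf2l counted most often. The median number of CpG dinucleotides was 12 over the windows of genes called higher and 7.5 over those of genes called lower. It was 14 for the 10224 tested genes with a listed promoter and 6 for the 27018 genes of the whole table. The letters CCAAT were searched on both strands. They were found in 15 of 32 windows (46.9%) of genes called higher and in 4 of 22 (18.2%) of genes called lower. The share was 35.3% over the promoters of tested genes. GGGCGG was found in 13 of the 32 (40.6%) and 13 of the 22 (59.1%), beside 51.2%. TATAAA was found in 3 (9.38%) and 3 (13.6%), beside 8.13%. These shares are descriptions of the listed windows, without a test.

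No gene of the lists that define meiotic prophase was called, beside 0.304% of all tested probes. At that share, lists of this size are likely to hold no call. None of 12 measured genes of the synaptonemal complex and meiotic cohesin passed the test (median difference 0.02), nor did any of 31 of recombination and break repair (median 0.02, range -0.85 to 1.06) or any of 18 of the piRNA pathway (median 0.00, range -0.20 to 0.31). The same was true of 12 genes of heterochromatin and H3K9 methylation (median -0.12), 21 Polycomb group genes (median -0.05), 19 p53 target and apoptosis genes (median 0.01), 14 genes of the integrated stress response (median -0.08), 10 interferon response genes (median 0.09), 16 dissociation-induced early genes (median -0.05) and 5 autosomal retrogene copies of X-linked genes (median -0.08). With 2 and 3 arrays, a p above the threshold does not show that these genes were equal between genotypes. The 10 measured kallikrein 1 genes averaged 5.19 and 6.24 in mutants, against 5.46, 4.85 and 5.32 in controls. None was called, while 8 of the 10 were called higher in mutant spermatids. Of 13 genes that the study names as raised in mutant spermatids, all 13 had a difference above 0 and 4 were called (Sp5, Lhx1, Abcb4 and Cldn5). That list was chosen on the spermatids of the same mice and is not independent evidence.

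The silenced sex chromosomes held no call, at 0 of 425 tested probes on the X and 0 of 29 on the Y. The median difference was 0.01 over X probes and -0.02 over autosomal probes, of which 0.333% were called. At the autosomal share few calls would fall on so few X and Y probes. Median levels of the X probes were 4.53 and 4.84 in mutants, against 4.85, 4.58 and 4.81 in controls, and 5.33 to 5.64 in spermatids. The Y probes had a median difference of 0.62, with medians of 6.10 and 8.45 in mutants, against 6.77, 5.73 and 6.95 in controls. They were highest on the array with the highest spermatid markers, and reached 10.61 to 11.25 in spermatids. Among autosomes the share called ran from 0 of 543 probes on chromosome 18 to 8 of 956 on chromosome 3.

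Round spermatids of the same mice, on arrays of their own, showed the same direction at all 71 probes. The share of all tested probes with the same direction in both cell types is not given beside it. In spermatids 1069 probes were called (4.57% of those tested), 743 higher (3.18%) and 326 lower (1.39%) in mutants. Of the 71 spermatocyte calls, 52 were called in spermatids in the same direction, 36 higher and 16 lower, and 0 in the opposite direction. They were 73.2% of the spermatocyte calls and 4.86% of the spermatid calls. The median spermatid difference was 1.75 for the probes called higher in spermatocytes and -1.33 for those called lower.

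The transcripts that led in spermatocytes were also far apart in spermatids. There 2610016A17Rik averaged 10.67 ± 0.25 in mutants and 5.54 ± 0.28 in controls, Evpl 9.14 ± 0.24 in mutants and 5.13 ± 0.45 in controls, and Cldn5 10.27 ± 0.08 in mutants and 6.81 ± 0.25 in controls (SD, n = 3 each). Fa2h averaged 9.06 ± 0.22 in mutant spermatids and 11.11 ± 0.14 in control spermatids. For these 4 transcripts the genotype effect in spermatocytes minus that in spermatids did not pass the test. The estimate for 2610016A17Rik was -1.50 on the log2 scale (SE 0.37, adjusted p = 0.248 of limma). For Evpl, Cldn5 and Fa2h the estimates were -0.42, -0.32 and -0.84 (adjusted p = 0.938, 0.939 and 0.751). Sp5 alone among the 71 probes differed, since its mutants averaged 9.77 ± 0.36 in spermatids, against 4.69 ± 0.24 in control spermatids, and its rise was smaller in spermatocytes by 2.69 (SE 0.42, adjusted p = 0.0361).

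Some spermatocyte calls were small in spermatids. E2f2 differed by 0.25 in spermatids at its first probe and by 0.58 at its second, H4c2 by -0.43, Slc5a5 by 0.22, Cyp2a5 by 0.22, Plgrkt by 0.41, Hspg2 by -0.30 and 1700001L19Rik by 0.30, none of them called there. In all, 19 of the 71 probes were not called in spermatids. The difference between the cell types was itself not called for any of these 19, for example 1.81 for E2f2 (adjusted p = 0.135) and -1.73 for H4c2 (adjusted p = 0.214), so they are not shown to be changed only in spermatocytes.

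**Figure D4:**
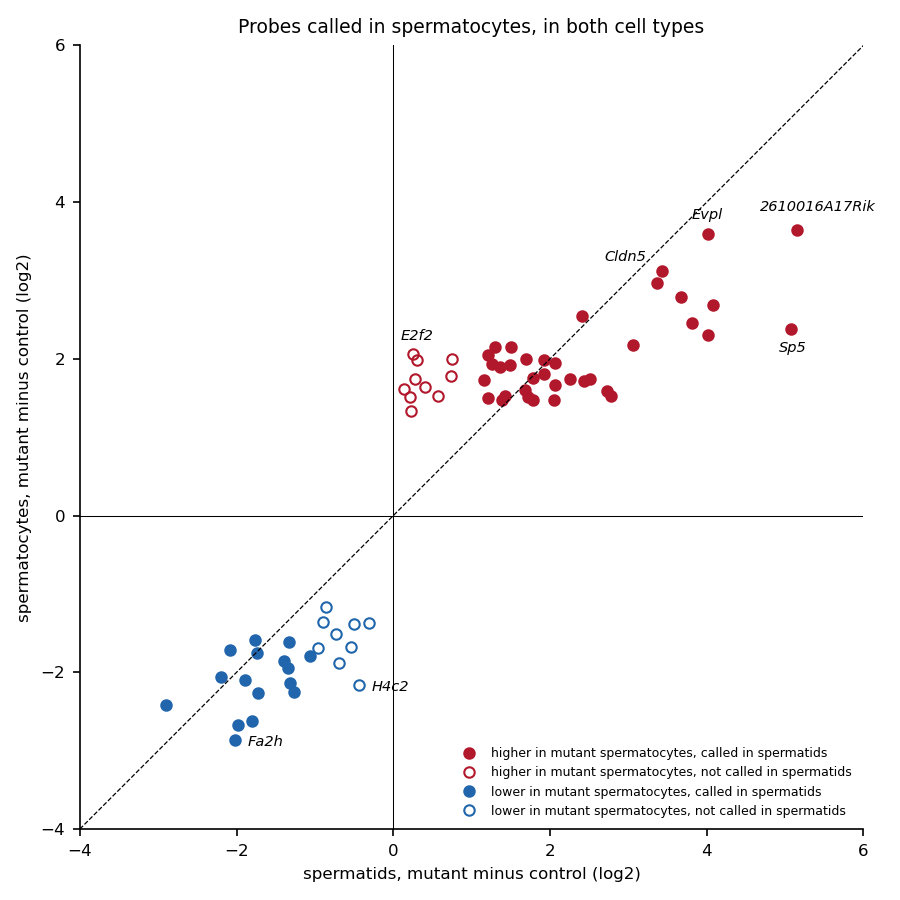
Mutant minus control difference in spermatocytes (y axis, log2) against that in round spermatids (x axis, log2) of the 71 probes called in spermatocytes, red for those higher and blue for those lower in Baz1a-/- spermatocytes. Filled points are the 52 called in both cell types, open points the 19 called only in spermatocytes, and the dashed line marks equal differences. All points lie in the quadrants of equal sign.

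The probes called in mutant spermatids were also read in spermatocytes. They were chosen for a fold of at least 2 in spermatids, so smaller spermatocyte differences are partly built into that choice. The 743 probes called higher in mutant spermatids had a median spermatocyte difference of 0.40 (quartiles 0.12 and 0.79), a fold of 1.32, and 622 of them (83.7%) lay above 0, beside 47.1% of all tested probes. The 326 probes called lower in mutant spermatids had a median of -0.41 (quartiles -0.87 and -0.14), a fold of 1.33, and 284 of them (87.1%) lay below 0, beside 52.9% of all. The quartiles of all tested probes were -0.22 and 0.20. Among the 743, the mutant arrays lay above all controls at 311 (41.9%, beside 8.25% of all tested), and among the 326 they lay below all controls at 156 (47.9%, beside 12.1%). Mutant replicate 3, high in spermatid markers, enters these medians. With it left out, and the spermatid sets called anew, the medians were 0.21 and -0.31. Of those sets 65.5% and 27.7% lay above 0. With mutant replicate 2 left out instead, the medians were 0.61 and -0.59, and 86.2% and 10.3% lay above 0. With the spermatid marker level as a covariate, the medians were 0.32 and -0.42. The part of spermatid RNA in these medians was not tested beyond these values.

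**Figure D5:**
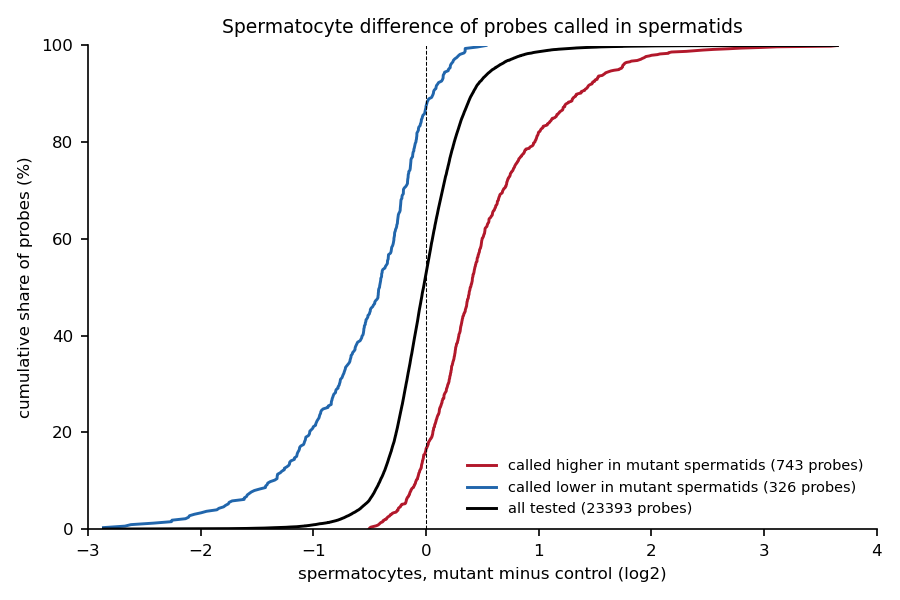
Cumulative share of probes (y axis, percent) against the mutant minus control difference in spermatocytes (x axis, log2). The curve of the 743 probes called higher in mutant spermatids (red) lies right of that of all 23393 tested probes (black), with a median of 0.40, and the curve of the 326 called lower (blue) lies left of it, with a median of -0.41.

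The genotype effects of the 2 cell types differed at 20 probes (0.0855% of those tested). In 19 of them the probe was called higher in mutant spermatids and less raised in spermatocytes, and in 1, Defa29, it was called lower in spermatids and less lowered in spermatocytes. Klk1b24, a glandular kallikrein, read 5.10 and 6.59 in mutant spermatocytes, against 4.42, 4.95 and 4.85 in control spermatocytes (difference 1.19, adjusted p = 0.749), while its spermatid difference was 4.69. Car4, a membrane-bound carbonic anhydrase, read 4.69 and 5.54 in mutant spermatocytes, against 4.36, 4.43 and 4.36 in control spermatocytes, and differed by 3.46 in spermatids. Mx2, an interferon-induced GTPase, read 4.58 and 5.51 in mutant spermatocytes, against 4.96, 5.34 and 5.11 in control spermatocytes, and differed by 2.68 in spermatids. At these 3 genes mutant replicate 3 was the higher of the mutant spermatocyte arrays.

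The called genes did not follow the course of normal differentiation in 1 direction. Of the probes called higher, 6 were also higher in control spermatids than in control spermatocytes (among them 1700001L19Rik by 4.66, Klkb1 by 2.99, Muc16 by 2.17, Vax1 by 1.45 and Dach1 by 1.03 on the log2 scale) and 4 were lower (both Ttn probes, Slc5a5 and Fads1). Of the probes called lower in mutants, 5 were higher in control spermatids (Fa2h by 1.49, Fem1al, AK007249, Ngfr and AK018963) and H4c2 was lower (-2.46). Over all tested probes 14.1% were higher and 18.9% lower in control spermatids.

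Against the control mean, mutant replicate 2 differed by a median of 1.73 over the probes called higher and -1.94 over those called lower, and mutant replicate 3 by 2.08 and -1.68. That both arrays differed in the called direction follows from how the probes were chosen. Replicate 3 lay above replicate 2 at 30 of the 46 probes called higher and at 21 of the 25 called lower, beside 46.2% of all tested probes.

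The censored mutant array, which was not in the fit that gave the 71 calls, lay above all 3 controls at 46 of the 46 probes called higher, beside 21.8% of all tested probes, and below all 3 at 25 of the 25 called lower, beside 35.9%. Its median distance from the control mean was 2.02 for those called higher and -1.74 for those called lower, beside -0.11 for all tested probes. The distance was at least 1 on the log2 scale at 44 and 21 of them. For example, 2610016A17Rik read 9.39 on this array, Evpl 8.44, Cldn5 9.98, AK019737 5.21 and Fa2h 7.55. Its spermatid markers were the highest of the spermatocyte arrays, and the part of spermatid RNA in these distances was not tested. The same 3 controls helped to choose the 71 probes. The counts are therefore not independent of the calls, and the values over all tested probes are not a like baseline.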

How the data were processed

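Total RNA of sorted cells was hybridised to Illumina MouseWG-6 v2.0 arrays. The authors deposited a bead signal per probe, a linear intensity that was summarized but not background-corrected or normalized, and a detection p-value per probe and array (GenomeStudio 2011.1). The authors also deposited log2 values, made with limma 3.12.1 by normexp correction with control probes and quantile normalization. The deposited signals were processed here in R 4.3.3 with limma 3.58.1. Background was corrected by normexp with an offset of 16 (negative controls inferred from the detection p-values), and the 12 arrays were quantile normalized together. No value departed from its deposited log2 value by more than 0.0244. A linear model of the 4 groups was fitted on 11 arrays with array weights and moderated variances. P-values were adjusted by the Benjamini-Hochberg method over the 23393 probes. They cover the spread between mice of a group, pooled over spermatocyte and spermatid arrays. The median SD was 0.22 in mutant and 0.20 in control spermatids, beside 0.26 and 0.25 in mutant and control spermatocytes. Arrays of the same mouse were treated as independent.

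Probe names came from the platform annotation or, for 402 tested probes, from the study's supplementary table, and 3593 tested probes had none. The members and gene lists were chosen with earlier results of these data known. Genes given with full values were the 15 largest rises and 12 largest falls, called members of a list, probes called with only spermatocyte arrays, the largest differences between cell types and the ISWI genes; other called genes are named for completeness, and some called genes and 1 list are not reported here. In the lists a gene with several probes is represented by its brightest one over the 5 arrays. Alternatives changed the background, normalization, weights, filter, threshold, arrays and blocks. No columns of the authors' own comparisons were used.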

Additional observations from a re-analysis of the deposited data

Results flagged for a closer look

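Of the 20 probes at which the genotype effects of the cell types differed, those named by the rule of the text are given here as the spermatocyte minus the spermatid effect on the log2 scale, with the adjusted p of limma. Sp5 differed by -2.69 (SE 0.42, adjusted p = 0.0361) and is also called in spermatocytes. Defa29 differed by 4.42 (SE 0.61, adjusted p = 0.0225), as the probe was called lower in mutant spermatids and read 4.59 and 4.52 in mutant spermatocytes, against 4.47, 4.31 and 5.43 in control spermatocytes. 1520401A03Rik differed by -3.60 (SE 0.55, adjusted p = 0.0323). It read 9.43 and 9.77 in mutant spermatocytes, against 8.63, 9.95 and 10.14 in control spermatocytes, and it averaged 9.25 ± 0.22 in mutant spermatids and 5.46 ± 0.20 in control spermatids (SD, n = 3 each), so that the mutant spermatids alone kept a level near that of spermatocytes. Klk1b24 differed by -3.50 (SE 0.52, adjusted p = 0.0276), 5430401F13Rik by -3.33 (SE 0.29, adjusted p = 0.000865), Mx2 by -2.73 (SE 0.35, adjusted p = 0.0173) and Car4 by -2.73 (SE 0.32, adjusted p = 0.0139).

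The censored mutant array, which was not in the fit that gave the calls, lay above all controls at 46 of 46 probes called higher (21.8% of all tested) and below all controls at 25 of 25 called lower (35.9% of all tested). Its round spermatid markers averaged 10.43, above every other spermatocyte array, and all 71 probes had the same sign in spermatids. The part of spermatid RNA in these counts was not tested. The same controls helped to choose the 71 probes, so the counts for the censored array are not independent of the calls.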

How the results depend on the processing

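Of the 71 called probes, 3 were called under all 25 alternatives. The count of calls moved from 71 to 27 with no background correction, 40 with an offset of 50, 26 with only the spermatocyte arrays in the fit and 3 when a fold of 2 was tested itself. It moved to 163 without array weights, 118 with probes detected on 1 of 11 arrays and 112 at a fold of 1.5 and an adjusted p of 0.1. It moved to 859 with the censored array added and to 429 with the spermatid marker level as a covariate. The 429 held all 71 probes. Leaving out 1 array gave 11 to 568 calls. It was 11, 23 and 18 without control replicates 1, 2 and 3, 568 without mutant replicate 2 (71 of them shared) and 191 without mutant replicate 3 (64 shared). Settings chosen after seeing the data, all with only spermatocyte arrays, gave 4 calls with the wider filter, 30 without weights and 402 with the censored array. The cause of these shifts was not tested.

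The spermatocyte median of probes called lower in spermatids was -0.72 with no background correction and -0.73 with median scaling. When the fold of 2 was tested itself, the medians were 0.82 and -1.07. The count for the difference between cell types moved from 20 to 44 with the wider filter, 0 with detection on every array of a spermatocyte group, 1 with the fold tested itself, 35 at the looser threshold, 84 with the censored array and 404 with the covariate. It ran from 1 to 120 with 1 array left out, namely 2, 1 and 5 without control replicates 1, 2 and 3, 14 without mutant replicate 2 and 120 without mutant replicate 3. The spermatocyte-only fits give no spermatid values. Of the named genes under these settings, 154 values fell short of the threshold, 6 newly passed it and none that was called changed sign. Signs of uncalled differences near 0, such as those of ISWI genes, did change.

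Same-numbered mutants and controls deviated together at 0.34, 0.08 and 0.16 in spermatids and at 0.54 in spermatocytes, where the 2 pairs are mirror images, so the numbers do not establish a pairing. With the replicate block, 69 probes were called (61 shared) and 35 differed between cell types. With the mouse as a random block 69 were called.

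At 10 of the 46 rises every control was at background, so that those changes are lower bounds.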
